A study of Mus musculus with 20 samples.

Results

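The genes described here make, control, move or dispose of cholesterol and fatty acids in the mouse brain. The set was a named list of 31 genes, all of which were found among the 24528 genes of the deposited table. None of them was at 0 in every library. By role, 7 genes act from acetyl-CoA to farnesyl diphosphate, 11 act from squalene to cholesterol, 5 control the pathway, 4 make fatty acids, and 4 move, export or turn over sterol.

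The RNA came from hippocampus and neocortex of mice aged 18 months and was sequenced as total RNA without its ribosomal part. In TDP43-KQ mice both copies of Tardbp carry a lysine-to-glutamine change that mimics acetylation of TDP-43, an RNA-binding protein, in every cell from the native locus. TDP43-WT mice are the wild-type controls. The change was made by genome editing of C57BL/6J zygotes, and the founder lines were kept as heterozygotes. There were 5 hippocampus KQ libraries (3 female, 2 male), 4 hippocampus WT libraries (3 female, 1 male), 6 neocortex KQ libraries (3 female, 3 male) and 5 neocortex WT libraries (3 female, 2 male), each taken as 1 replicate. The 6 female libraries of the hippocampus have the same genotypes, numbers and litters as those of the neocortex, so they may come from the same 6 mice, which the labels do not state.

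All values are on a log2 scale after a variance-stabilizing transformation, with sex and litter taken out, and each gene is set to a mean of 0 over the neocortex KQ libraries. They therefore give differences between libraries, not how strongly a gene is expressed, and sequencing depth cannot be read from them. Neocortex WT male 1 is the only library of its litter, so removal of litter set each of its values to the mean of its group. It is listed with the others below but adds no observation of its own, also where groups do not overlap. Hippocampus KQ female 2 and neocortex KQ female 2 are the only libraries of litter 1. Removal of litter over both regions therefore made their deviations from their group means equal and opposite (correlation -1). Both are listed below, but the 2 are not separate observations. A difference is called below where the p-value of limma, adjusted after Benjamini and Hochberg over all genes tested, is under 0.05, and differences are printed with their standard error. Because litter is fitted within each region, a genotype difference can deviate from the difference of the group means, more so in the hippocampus, where the means of Insig1 were -0.33 in KQ and -0.30 in WT libraries and its fitted difference was -0.13.

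Cholesterol cannot cross into the brain from blood, so brain cells make their own. The enzymes are switched on together by SREBP transcription factors, of which SREBP-2, from Srebf2, mainly serves sterol synthesis and SREBP-1, from Srebf1, mainly fatty acid synthesis. Scap escorts SREBP out of the endoplasmic reticulum when sterol is scarce, and Insig1 and Insig2 hold it back when sterol is plentiful. SREBP binds sterol regulatory elements and usually works beside NF-Y, a factor that binds the CCAAT box. In the adult brain astrocytes make sterol that neurons take up, oligodendrocytes make it for myelin, and neurons convert excess cholesterol to 24-hydroxycholesterol with the enzyme Cyp46a1.

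The promoters are shown because most of these genes share a sequence feature that their choice did not use. RefSeq start sites of build GRCm38.p6 gave a window for 24 of the 31 genes, and the 250 bases before each start were searched on both strands. A CCAAT box (letters CCAAT, or ATTGG on the other strand) was present in 20 of the 24 genes (83.3%) and in 14 of the 15 sterol synthesis enzymes with a window (93.3%). Over all 27025 genes with a window the share was 37.5%. A sterol regulatory element spelled TCACNCCAC was found in Hmgcs1 alone among the 24 genes, against 1.22% of all genes. An E-box spelled CACGTG was found in 6 of the 24 genes (25%), against 6.86% of all genes. A gene with several start sites was counted once if any window held the letters, and a match is a description of the letters only. The windows of Hmgcs1, Mvk and Hsd17b7 (sterol enzymes with several CCAAT boxes), of Cyp46a1 (the lowest gene in the hippocampus relative to the neocortex) and of Abca1 (higher there, with no CCAAT box) follow, 5′ to 3′ along the gene, with CCAAT boxes and the sterol regulatory element in capitals.
Hmgcs1 promoter, chr13:119690101-119690350, plus strand: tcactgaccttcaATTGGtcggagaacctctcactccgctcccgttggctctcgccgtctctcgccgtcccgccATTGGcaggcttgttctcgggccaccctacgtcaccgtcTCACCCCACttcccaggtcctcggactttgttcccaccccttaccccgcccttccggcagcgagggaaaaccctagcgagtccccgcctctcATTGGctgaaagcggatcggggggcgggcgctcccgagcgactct
Mvk promoter, chr5:114444019-114444268, plus strand: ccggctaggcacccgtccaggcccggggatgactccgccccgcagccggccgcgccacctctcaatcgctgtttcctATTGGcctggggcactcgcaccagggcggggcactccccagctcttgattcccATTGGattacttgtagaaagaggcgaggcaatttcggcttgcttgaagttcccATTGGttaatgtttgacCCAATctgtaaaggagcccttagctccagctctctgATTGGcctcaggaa
Hsd17b7 promoter, chr1:169969206-169969455, minus strand: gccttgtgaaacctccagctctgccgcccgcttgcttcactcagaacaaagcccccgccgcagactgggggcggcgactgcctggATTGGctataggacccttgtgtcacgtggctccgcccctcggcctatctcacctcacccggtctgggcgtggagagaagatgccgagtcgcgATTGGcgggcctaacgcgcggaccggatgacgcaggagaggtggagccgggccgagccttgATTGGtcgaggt
Cyp46a1 promoter, chr12:108334066-108334315, plus strand: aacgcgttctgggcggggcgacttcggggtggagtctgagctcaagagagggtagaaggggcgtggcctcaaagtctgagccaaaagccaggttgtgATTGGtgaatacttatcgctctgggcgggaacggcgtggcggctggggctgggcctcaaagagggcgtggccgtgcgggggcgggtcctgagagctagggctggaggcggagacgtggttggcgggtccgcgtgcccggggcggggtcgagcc
Abca1 promoter, chr4:53159896-53160145, minus strand: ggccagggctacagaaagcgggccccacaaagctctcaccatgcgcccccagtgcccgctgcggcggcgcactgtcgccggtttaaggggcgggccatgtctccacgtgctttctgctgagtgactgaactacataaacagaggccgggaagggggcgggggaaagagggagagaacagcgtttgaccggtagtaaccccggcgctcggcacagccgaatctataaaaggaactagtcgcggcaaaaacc
Mvk holds 5 CCAAT boxes in its window, and Hmgcs1 and Hsd17b7 hold 3 each. The sterol regulatory element of Hmgcs1 begins 137 bases before the start site.

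The labels were checked first. Tardbp lay between -0.16 and 0.16 in all KQ libraries of both regions and between -1.07 and -0.62 in all WT libraries. All 7 marker genes of the hippocampus were called higher in hippocampus than in neocortex libraries of both genotypes, and 6 of 7 neocortex markers were called lower. The seventh, Scnn1a, went the other way. The median of the hippocampus markers was 1.79 to 2.52 in hippocampus KQ libraries, against 2.72 to 2.81 in hippocampus WT libraries, without overlap, and 6 of the 7 had negative KQ minus WT differences there, none called. Choroid plexus genes, which can mark neighbouring tissue in a dissection, varied widely. Their median ran between 0.29 and 3.25 in hippocampus KQ libraries, -0.18 and 1.66 in hippocampus WT libraries, -0.74 and 1.54 in neocortex KQ libraries, and -0.29 and 0.54 in neocortex WT libraries. The highest deviation in neocortex KQ libraries, 1.54, mirrored the lowest in hippocampus KQ libraries, -1.54. Removal of litter mirrors the libraries of KQ female 2 in this way, so these extremes cannot be read as neighbouring tissue.

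The first comparison asked how the genes differ between hippocampus and neocortex. Many of these genes were lower in the hippocampus, in both genotypes. In KQ mice 15 of the 31 genes (48.4%) were called lower and 2 higher, against 18.2% and 17.2% of all 17863 genes tested. In WT mice 11 of 31 (35.5%) were called lower and 1 higher, against 14.7% and 13.5% of all genes. The median difference over the 31 genes was -0.11 in KQ mice and -0.13 in WT mice, where the median over all genes was 0.01 in each. In both genotypes 10 genes were called lower (Abcg1, Acat2, Acly, Cyp46a1, Fdft1, Hmgcs1, Hsd17b7, Insig1, Srebf2 and Stard4) and Abca1 was called higher. Every hippocampus KQ library lay below every neocortex KQ library for 8 of the 31 genes and above for 2, against 13.8% and 10.9% of all genes, and in WT mice the counts were 11 below and 1 above, against 15.2% and 13.7%. Without hippocampus WT female 3, 1 gene was called higher and 6 lower in WT mice, where 9.56% and 11.3% of all genes were. In such tissue samples fewer cells of a type and less RNA per cell cannot be told apart, and the p-values measure the spread between these libraries.

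**Figure D1:**
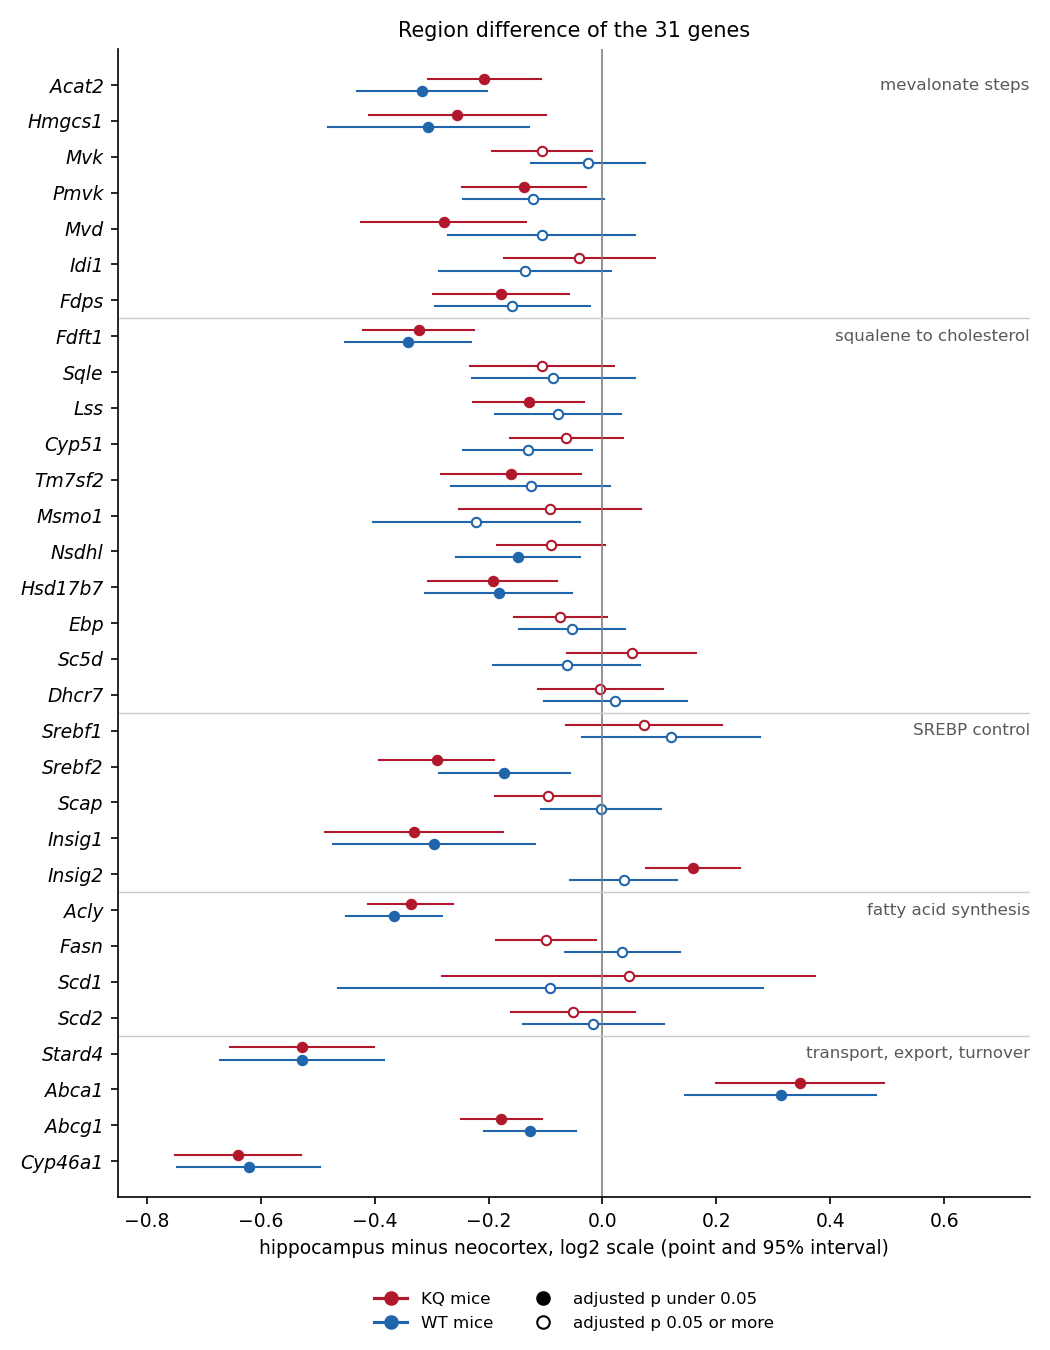
Difference between hippocampus and neocortex (x axis, log2 scale, hippocampus minus neocortex, with 95% interval) for each of the 31 genes (y axis, grouped by role), in KQ mice (red) and WT mice (blue), with filled points where the adjusted p of limma was under 0.05. Cyp46a1 and Stard4 lie farthest below 0 in both genotypes, Abca1 lies above 0, and 26 of 31 points are below 0 in each genotype.

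The largest difference was that of Cyp46a1 (chr12:108334268-108362234). Its values were -0.59, -0.57, -0.80, -0.61 and -0.63 in hippocampus KQ libraries, against a lowest of -0.07, a median of -0.03 and a highest of 0.13 in neocortex KQ libraries. In hippocampus WT libraries it had -0.65, -0.71, -0.64 and -0.69, against -0.0005, -0.12, -0.05, -0.05 and -0.03 in neocortex WT libraries. No hippocampus library reached the level of any neocortex library. The difference was -0.64 ± 0.05 in KQ mice (adjusted p = 1.76e-07) and -0.62 ± 0.06 in WT mice (adjusted p = 1.21e-06), or 0.642 and 0.65 times the neocortex value.

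Stard4, a small carrier that moves cholesterol between membranes inside the cell, came next. It had -0.63, -0.41, -0.53, -0.47 and -0.60 in hippocampus KQ libraries, against -0.12 to 0.14 with a median of 0.01 in neocortex KQ libraries. The WT values were -0.58, -0.42, -0.55 and -0.59 in the hippocampus, against -0.03, 0.06, -0.03, -0.01 and -0.03 in the neocortex. The groups were again apart in both genotypes. Its difference was -0.53 ± 0.06 in KQ mice (adjusted p = 5.49e-06) and -0.53 ± 0.07 in WT mice (adjusted p = 2.61e-05).

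The ATP-binding transporters that load cholesterol onto lipoproteins parted ways. Abca1 (chr4:53030789-53159988) had 0.54, 0.28, 0.41, 0.19 and 0.31 in hippocampus KQ libraries, against -0.07 to 0.07 with a median of 0.01 in neocortex KQ libraries. In WT mice it had 0.26, 0.16, 0.20 and 0.38 in the hippocampus, against -0.02, -0.23, -0.03, -0.06 and 0.04 in the neocortex. Every hippocampus library was above every neocortex library of its genotype, and Abca1 rose by 0.35 ± 0.07 in KQ mice (adjusted p = 0.00112) and 0.31 ± 0.08 in WT mice (adjusted p = 0.00757). Abcg1 (chr17:31057694-31117984) fell by 0.18 ± 0.03 in KQ mice (adjusted p = 0.000674) and by 0.13 ± 0.04 in WT mice (adjusted p = 0.0204). All 4 genes of transport, export and turnover were thus called in both genotypes, 3 lower and 1 higher.

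A part of the sterol synthesis enzymes was lower as well. Of the 18 enzymes, 9 were called lower in KQ mice and 5 in WT mice, against 18.2% and 14.7% of all genes. None was called higher, against 17.2% and 13.5% of all genes. In each genotype 17 of 18 differences were below 0, where of all 17863 genes 9617 were above 0 in KQ mice and 9207 in WT mice. Fdft1 (chr14:63145150-63181687), squalene synthase, takes the first step committed to sterols. It had -0.36, -0.34, -0.34, -0.24 and -0.32 in hippocampus KQ libraries, against -0.09 to 0.07 with a median of 0.00 in neocortex KQ libraries. In WT mice it had -0.43, -0.30, -0.48 and -0.43 in the hippocampus, against -0.09, -0.01, -0.05, -0.07 and -0.12 in the neocortex. The hippocampus and neocortex values of Fdft1 did not overlap in either genotype, and the difference was -0.32 ± 0.05 in KQ mice (adjusted p = 5.25e-05) and -0.34 ± 0.05 in WT mice (adjusted p = 0.000135).

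Acat2 (chr17:12943042-12960725), which joins acetyl-CoA units at the entry of the pathway, fell in the hippocampus by 0.21 ± 0.05 in KQ mice (adjusted p = 0.00285) and by 0.32 ± 0.05 in WT mice (adjusted p = 0.000338), with no overlap in either. Hmgcs1 (chr13:119690351-119708260), HMG-CoA synthase, acts early in the pathway. It had -0.36, -0.24, -0.25, -0.12 and -0.31 in hippocampus KQ libraries, against -0.14 to 0.16 with a median of 0.01 in neocortex KQ libraries. In WT mice it had -0.35, -0.11, -0.38 and -0.43 in the hippocampus, against -0.06, 0.11, 0.01, -0.01 and -0.11 in the neocortex. The groups overlapped slightly in both genotypes, through hippocampus KQ male 1 and hippocampus WT female 2. The difference of Hmgcs1 was -0.26 ± 0.07 in KQ mice (adjusted p = 0.0128) and -0.31 ± 0.08 in WT mice (adjusted p = 0.012). Hsd17b7 (chr1:169949535-169969242), a sterol ketone reductase of the late pathway, fell by 0.19 ± 0.05 in KQ mice (adjusted p = 0.0105) and by 0.18 ± 0.06 in WT mice (adjusted p = 0.0353).

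Some enzymes passed the threshold in 1 genotype. In KQ mice Mvd, which makes isopentenyl diphosphate, fell by 0.28 ± 0.07 (adjusted p = 0.00476), where in WT mice its difference was -0.11 ± 0.08 (adjusted p = 0.328). Fdps, farnesyl diphosphate synthase, fell by 0.18 ± 0.06 in KQ mice (adjusted p = 0.0222), Tm7sf2, a sterol reductase, by 0.16 ± 0.06 (adjusted p = 0.0412), Pmvk, phosphomevalonate kinase, by 0.14 ± 0.05 (adjusted p = 0.0467) and Lss, lanosterol synthase, by 0.13 ± 0.05 (adjusted p = 0.0388). Nsdhl, which removes methyl groups from the sterol ring with partners, fell in WT mice by 0.15 ± 0.05 (adjusted p = 0.0408) and had -0.09 ± 0.04 in KQ mice (adjusted p = 0.131). The test of the difference between the genotypes, given below, called none of these. The enzymes not called in either genotype were Mvk, Idi1, Sqle, Cyp51, Msmo1, Ebp, Sc5d and Dhcr7. Their differences lay between -0.22 (Msmo1 in WT mice, adjusted p = 0.0657) and 0.05 (Sc5d in KQ mice, adjusted p = 0.49). With the mouse as a random effect, Cyp51, Msmo1 and Fdps were also called lower in WT mice and Mvk in KQ mice.

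The genes that control the pathway did not move as 1 block. Srebf2 (chr15:82147269-82205379) had -0.35, -0.23, -0.37, -0.18 and -0.33 in hippocampus KQ libraries, against -0.06 to 0.09 with a median of 0.01 in neocortex KQ libraries. In WT mice it had -0.18, -0.21, -0.15 and -0.26 in the hippocampus, against 0.04, -0.04, -0.02, -0.03 and -0.09 in the neocortex. All hippocampus values were below all neocortex values of the same genotype. Srebf2 fell by 0.29 ± 0.05 in KQ mice (adjusted p = 0.000199) and by 0.17 ± 0.05 in WT mice (adjusted p = 0.0263). Srebf1 had 0.07 ± 0.06 (adjusted p = 0.41) in KQ mice and 0.12 ± 0.07 (adjusted p = 0.245) in WT mice, neither called.

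Insig1 (chr5:28071412-28078662), itself a target gene of SREBP, fell by 0.33 ± 0.07 in KQ mice (adjusted p = 0.00241) and by 0.30 ± 0.08 in WT mice (adjusted p = 0.0146), without overlap in either. Insig2 (chr1:121304353-121332662), its partner of like function, rose by 0.16 ± 0.04 in KQ mice (adjusted p = 0.00499) and had 0.04 ± 0.04 in WT mice (adjusted p = 0.566). Scap was not called, at -0.10 ± 0.04 in KQ mice (adjusted p = 0.0987) and -0.003 ± 0.05 in WT mice (adjusted p = 0.978).

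In fatty acid synthesis the regional difference was that of Acly (chr11:100476352-100528000), ATP citrate lyase, which supplies acetyl-CoA to both sterol and fatty acid synthesis. It had -0.34, -0.36, -0.32, -0.34 and -0.32 in hippocampus KQ libraries, against -0.06 to 0.05 with a median of 0.00 in neocortex KQ libraries. In WT mice the values were -0.35, -0.27, -0.37 and -0.34 in the hippocampus, against -0.03, 0.08, 0.06, 0.04 and 0.03 in the neocortex. The libraries of a group lay close together and the regions were far apart. The difference of Acly was -0.34 ± 0.03 in KQ mice (adjusted p = 2.23e-06) and -0.37 ± 0.04 in WT mice (adjusted p = 4.45e-06). Fasn, fatty acid synthase, and the desaturases Scd1 and Scd2 were not called. Fasn had -0.10 ± 0.04 (adjusted p = 0.0775) in KQ mice and 0.04 ± 0.05 (adjusted p = 0.616) in WT mice.

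**Figure D2:**
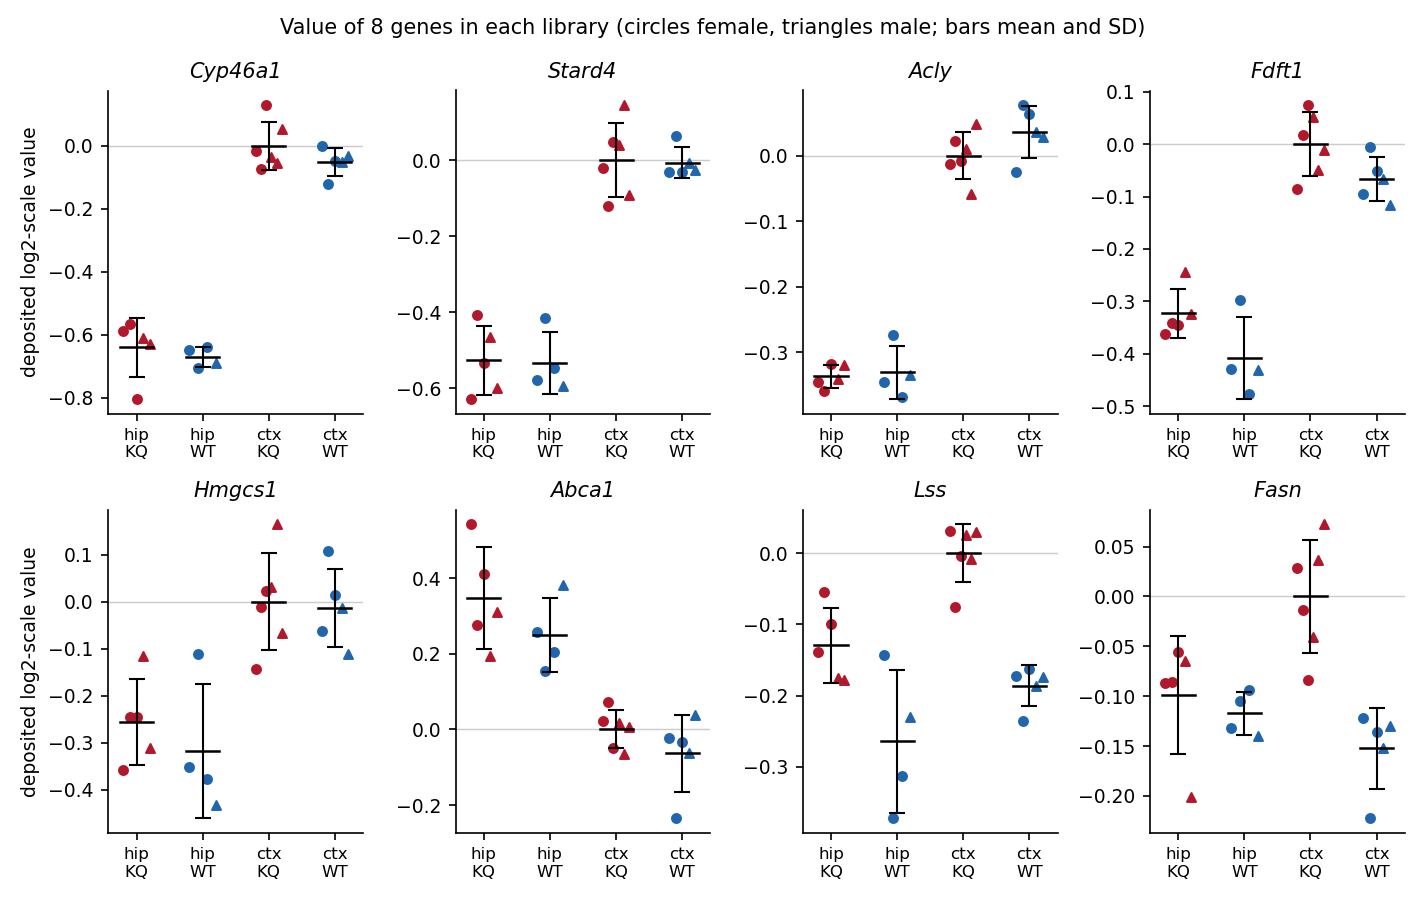
Deposited values (y axis, log2 scale, relative to the neocortex KQ mean) of 8 genes in every library, for hippocampus (hip) and neocortex (ctx) of KQ mice (red) and WT mice (blue), with circles for females, triangles for males and bars for the mean and SD. For Cyp46a1, Stard4, Acly and Fdft1 the hippocampus values lie wholly below the neocortex values, for Abca1 wholly above, and in the neocortex the KQ values of Lss and Fasn lie wholly above the WT values.

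Of the other genes of these pathways, 22 for sterol synthesis, uptake and handling and 25 for fatty acids, 12 of 47 were called higher in the hippocampus of KQ mice and 7 lower, against 9 higher and 5 lower in WT mice. Of all genes 17.2% were called higher and 18.2% lower in KQ mice, and 13.5% and 14.7% in WT mice, so that the counts of lower genes were no larger a share than in all genes. Among the genes called higher in both genotypes, Mylip, a ubiquitin ligase, rose by 0.45 ± 0.04 in KQ mice and by 0.40 ± 0.05 in WT mice, Lcat, which esterifies lipoprotein cholesterol, by 0.37 ± 0.07 and 0.34 ± 0.08, and Apoe, the main apolipoprotein of the brain, by 0.26 ± 0.06 and 0.26 ± 0.07. In fatty acid metabolism Thrsp, a lipogenic regulator, rose by 0.51 ± 0.09 in KQ mice and 0.62 ± 0.10 in WT mice, and Elovl6, a chain elongase, by 0.24 ± 0.06 and 0.19 ± 0.07.

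Acacb, which makes malonyl-CoA at mitochondria, rose by 0.65 and 0.43, Soat1, which stores cholesterol as ester, by 0.23 and 0.14, and Me1, malic enzyme, by 0.11 and 0.17, in KQ and WT mice. Among those called lower in both genotypes, Stard3, a sterol carrier of late endosomes, fell by 0.21 and 0.16, Tecr, an enoyl reductase of chain elongation, by 0.16 and 0.24, and Acsl6, an acyl-CoA synthetase, by 0.15 and 0.15. Genes past the threshold in KQ mice and not in WT mice included Lipa, Fads2, Elovl7 and Vldlr, higher, and Nr1h2, lower, and Npc1 was past it, higher, in WT mice and not in KQ mice.

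Some cell type markers moved between the regions too. Of 10 neuron markers 9 were called lower in the hippocampus of KQ mice, and 7 were called lower and 1 (Camk2a) higher in WT mice, with a median of -0.32 in each. The neuron marker median ran between -0.40 and -0.29 in hippocampus KQ libraries, against -0.05 and 0.04 in neocortex KQ libraries, and between -0.31 and -0.18 in hippocampus WT libraries, against 0.01 and 0.12 in neocortex WT libraries. Of 10 astrocyte markers 6 were called higher in each genotype, and of 12 oligodendrocyte markers 2 were called higher in KQ mice and 4 in WT mice. Of all genes 18.2% were called lower and 17.2% higher in KQ mice, and 14.7% and 13.5% in WT mice. The oligodendrocyte count in KQ mice was thus no larger a share than in all genes. Of 7 choroid plexus markers 6 were called higher in KQ mice and 0 in WT mice, and no marker of microglia (8) or endothelium (6) was called in either. The part of these markers in the regional differences was not tested.

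The second comparison asked whether the acetylation-mimic form of TDP-43 changes these genes. None of the 31 genes was called in either region, in either direction. In the neocortex 7 of 18329 genes were called (0.0382%) and in the hippocampus 0 of 18310 (0%). Tardbp itself was called in the neocortex (0.99 ± 0.07, adjusted p = 0.00192 in limma). In the hippocampus it was not (0.86 ± 0.13, adjusted p = 0.204 in limma). The study, testing counts with DESeq2, reported far more genes in each region. The absence of calls here therefore does not show that these genes are unchanged. At an unadjusted p under 0.05, 3 of the 31 genes were higher and 0 lower in neocortex KQ libraries, against 7.69% and 5.97% of all genes. In the hippocampus 0 were higher and 0 lower, against 6.48% and 5.67% of all genes. Differences in the neocortex ran between -0.10 and 0.20 with a median of 0.03, and their 95% intervals lay within -0.22 and 0.34. Differences in the hippocampus ran between -0.13 and 0.12 with a median of 0.03, and their intervals lay within -0.33 and 0.36. The direction of the hippocampus median rested on single libraries, since it was -0.05 without WT male 1, with 10 of 31 differences above 0 in place of 19, and -0.008 without KQ male 1, against 0.06 without KQ female 1. The neocortex median ran between 0.002 (without WT male 2) and 0.07 (without KQ female 1). With genotype as the only term, which counts the removed sex and litter as free, Lss, Mvk, Fasn and Mvd (4 genes) were called higher in the neocortex, where 7.84% of all genes were.

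**Figure D3:**
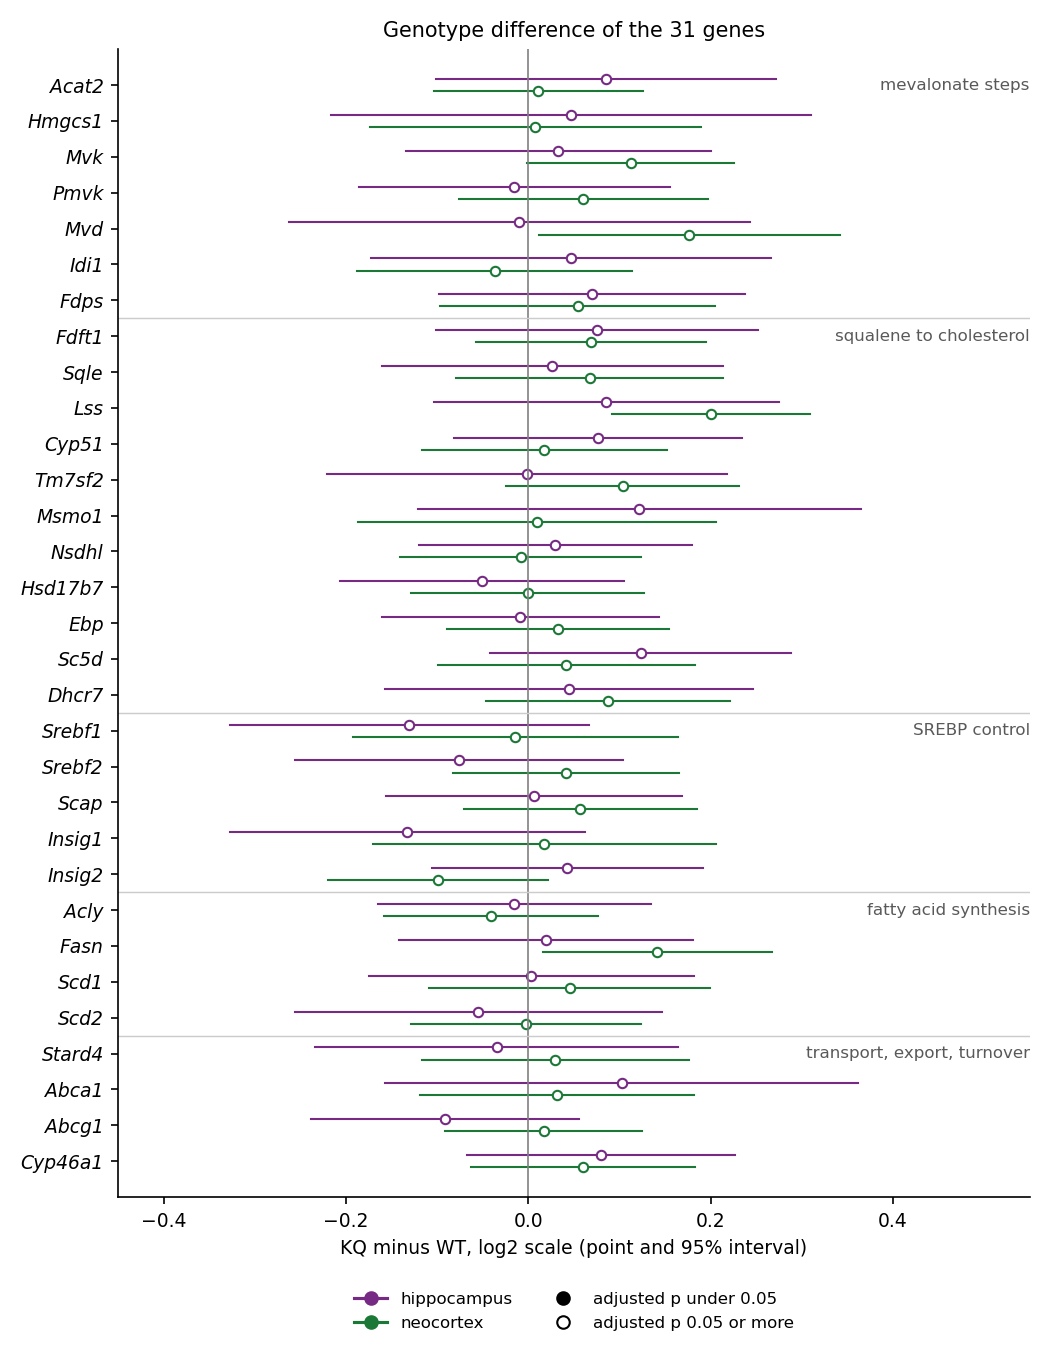
Difference between KQ and WT mice (x axis, log2 scale, KQ minus WT, with 95% interval) for each of the 31 genes (y axis, grouped by role), in the hippocampus (purple) and the neocortex (green). No gene passed an adjusted p of 0.05 in either region, and Lss in the neocortex has the interval farthest from 0, at 0.09 to 0.31.

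Lss (chr10:76531565-76557139), which closes squalene epoxide into lanosterol, had the lowest p in the neocortex. It had a lowest of -0.08, a median of 0.01 and a highest of 0.03 in neocortex KQ libraries, against -0.17, -0.24, -0.16, -0.19 and -0.17 in neocortex WT libraries. All 6 KQ values lay above all 5 WT values, of which that of WT male 1 is only the group mean. The fitted difference was 0.20 ± 0.05 (95% interval 0.09 to 0.31, adjusted p = 0.206 in limma). In the hippocampus Lss had -0.14, -0.05, -0.10, -0.18 and -0.18 in KQ libraries, against -0.14, -0.37, -0.31 and -0.23 in WT libraries, with overlap, and a fitted difference of 0.09 ± 0.08 (adjusted p = 0.684).

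Fasn (chr11:120805958-120825166) was the other gene without overlap in the neocortex. It ran between -0.08 and 0.07 with a median of 0.01 in neocortex KQ libraries, against -0.12, -0.22, -0.14, -0.15 and -0.13 in neocortex WT libraries. Its difference was 0.14 ± 0.06 (adjusted p = 0.328 in limma). In the hippocampus the Fasn values overlapped, at -0.09, -0.09, -0.06, -0.06 and -0.20 in KQ libraries, against -0.13, -0.10, -0.09 and -0.14 in WT libraries. Over all genes 3.84% had every neocortex KQ library above every neocortex WT library, and none of the 31 genes had every one below, against 3.91% of all genes.

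The other genes with low p in the neocortex were Mvd at 0.18 ± 0.07 (adjusted p = 0.346), Mvk, mevalonate kinase, at 0.11 ± 0.05 (adjusted p = 0.368), Insig2 at -0.10 ± 0.05 (adjusted p = 0.428) and Tm7sf2 at 0.10 ± 0.06 (adjusted p = 0.432). In the hippocampus Sc5d (chr9:42251592-42264300), a sterol desaturase, had -0.01, 0.01, 0.15, 0.08 and 0.02 in KQ libraries, against -0.09, -0.01, -0.21 and -0.15 in WT libraries. It was the only one of the 31 genes whose hippocampus groups did not overlap, narrowly, where 3.73% of all genes had every KQ library higher and 4.86% every KQ library lower. Its fitted difference was 0.12 ± 0.07 (adjusted p = 0.508). Insig1 had -0.13 ± 0.08 (adjusted p = 0.54), Srebf1 -0.13 ± 0.08 (adjusted p = 0.55), Abcg1 -0.09 ± 0.06 (adjusted p = 0.576), Cyp46a1 0.08 ± 0.06 (adjusted p = 0.626) and Msmo1, a sterol demethylase, 0.12 ± 0.10 (adjusted p = 0.652). With 1 library left out, Insig1 ran between -0.24 and -0.02, Sc5d between 0.05 and 0.20 and Msmo1 between -0.04 and 0.28. None of these differences stood clear of the spread between libraries after adjustment.

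With all 20 libraries in 1 fit, which shares the estimate of spread, again none of the 31 genes was called, where 0.224% of 17863 genes (40) were called for the neocortex and 0.386% (69) for the hippocampus. At an unadjusted p under 0.05, 3 of the 31 genes were higher and 0 lower in the neocortex, against 7.5% and 6.95% of all genes, and 2 were higher and 0 lower in the hippocampus, against 7.19% and 7.65%. Lss had 0.19 ± 0.05 in the neocortex (adjusted p = 0.153), followed by Fasn at 0.15 ± 0.05 (adjusted p = 0.183) and Mvd at 0.17 ± 0.08 (adjusted p = 0.324). In the hippocampus Sc5d had 0.17 ± 0.06 (adjusted p = 0.245) and Lss 0.14 ± 0.05 (adjusted p = 0.274). The difference between the genotype effects of the regions, which is also the difference between the regional effects of the genotypes, was called for none of the 31 genes and for 0 of all 17863 (0%). At an unadjusted p under 0.05 it held Fasn alone of the 31 genes, at -0.13 ± 0.06 (adjusted p = 0.829), against 5.83% of all genes. Insig2 had 0.12 ± 0.06 (adjusted p = 0.829) and Mvd -0.17 ± 0.10 (adjusted p = 0.842).

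Of the 47 other pathway genes none was called between genotypes in either region. Among those with the lowest p in the neocortex were Hsd17b12, a ketoacyl reductase of chain elongation, at -0.25 ± 0.07 (adjusted p = 0.254) and Elovl7, an elongase, at -0.28 ± 0.08 (adjusted p = 0.257). In the hippocampus they were Lipa, the lysosomal lipase, at 0.30 ± 0.07 (adjusted p = 0.275), Lcat at -0.24 ± 0.08 (adjusted p = 0.32) and Soat1 at 0.21 ± 0.07 (adjusted p = 0.346).

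No cell type marker was called between genotypes in either region, and the hippocampus markers differed between the genotypes as given above. All 12 oligodendrocyte markers had negative KQ minus WT differences in each region, with a median of -0.36 in the hippocampus and -0.21 in the neocortex. All 7 choroid plexus markers were positive in the hippocampus, with a median of 1.67. All 10 neuron markers were negative in the hippocampus, with a median of -0.18, and all 8 microglia markers were negative in both regions. The median over 10 astrocyte markers was -0.19 in hippocampus and -0.12 in neocortex. The part of these values in those of the 31 genes was not tested.

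Apart from groups, most of the sterol enzymes varied together from library to library. With the mean of each group removed, the 153 pairs among the 18 enzymes had a mean Pearson correlation of 0.35 over the 20 libraries, where the mean over pairs of all genes was 0.0005, and 131 pairs were above 0. The mean was 0.412 over the 9 hippocampus libraries and 0.283 over the 11 neocortex libraries. These are descriptions: the libraries share litters and may share mice, and removal of sex and litter leaves fewer free values than libraries. Hmgcs1 and Msmo1 had the highest correlation, 0.95, and Mvk and Hsd17b7 the lowest, -0.55.

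**Figure D4:**
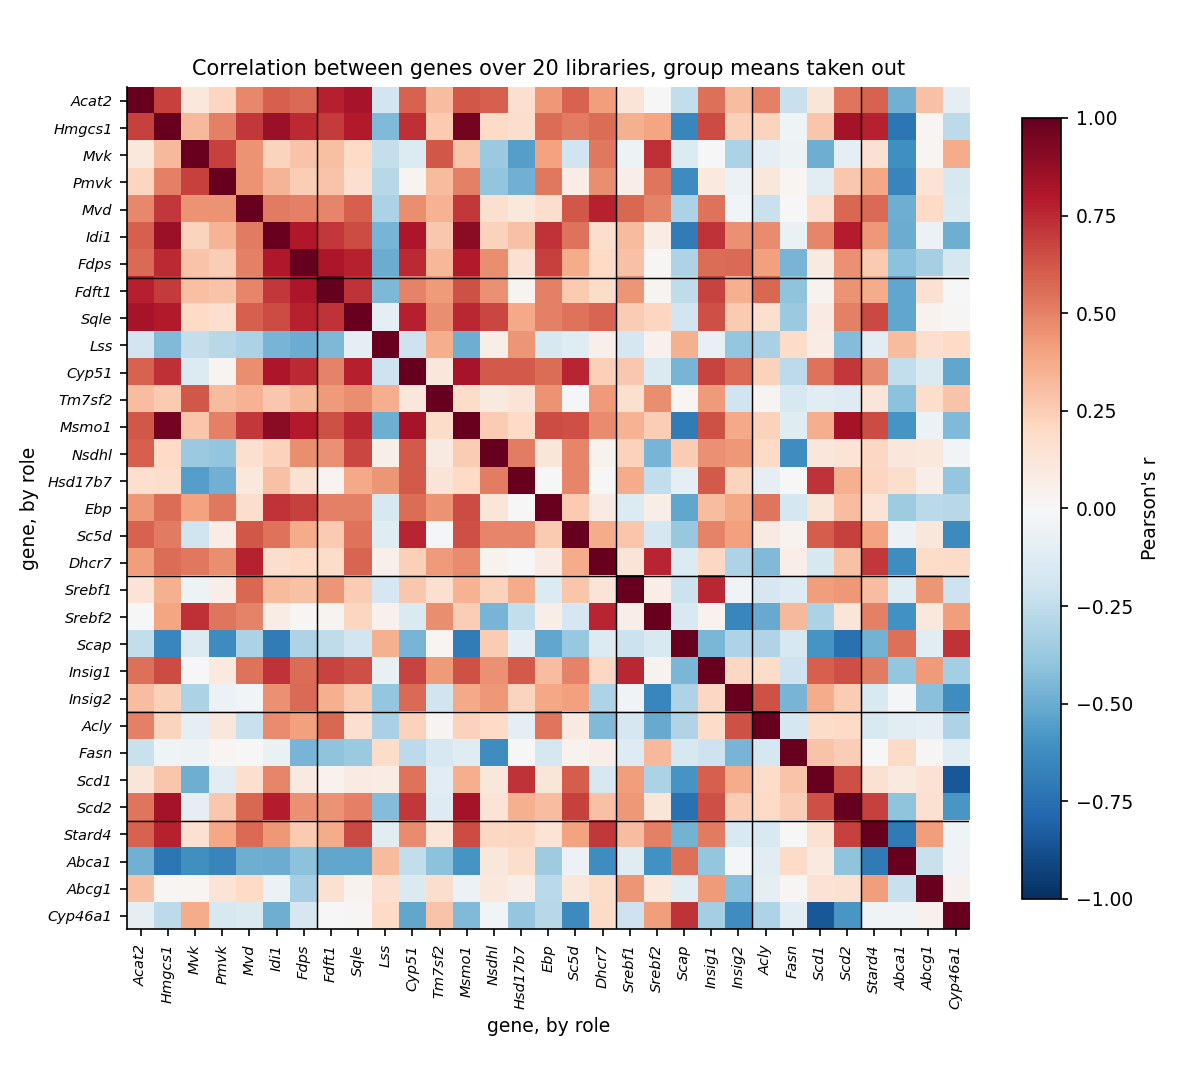
Pearson correlation between the 31 genes over 20 libraries after removal of group means (both axes list the genes by role, color gives the correlation from -1 to 1). Most pairs of sterol enzymes are positive, with a mean of 0.35 over 153 pairs, whereas Lss, Scap and Abca1 are mostly negative with them.

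The mean correlation with the sterol enzymes was highest for Sqle, squalene epoxidase (0.547), Msmo1 (0.524) and Hmgcs1 (0.52). Lss was the only enzyme below 0, at -0.179. Hsd17b7 (0.156) and Mvk (0.171) lay above 67.5% and 69.4% of the other genes. Pmvk (0.215) and Nsdhl (0.246) lay above 73.7% and 77%, so the shared variation held for a part of the enzymes. Among the genes of control, Insig1 had 0.455, Srebf2 0.169 and Scap -0.283. Scd2, the main stearoyl-CoA desaturase of brain, had 0.393, and Fasn -0.148. In transport Stard4 had 0.389 and Abca1 -0.366. Read against all other genes, Sqle lay above 99.9% of them, Hmgcs1 above 99.4% and Insig1 above 96.4%, whereas Stard4 lay above 90.9%, Srebf2 above 69.1%, Fasn above 33.9%, Scap above 19.5% and Abca1 above 11%, places that many other genes shared.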

How the data were processed

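RNA was sequenced on a NovaSeq in paired ends after ribosomal RNA depletion, trimmed with cutadapt, aligned with STAR 2.5.2b to mm10 and quantified with Salmon, as the study's methods and processing notes state. The deposited log2 values were made by the authors with the variance-stabilizing transformation of DESeq2 1.34.0 in R 4.1.0, and sex and litter were then removed with limma over both regions together. In that table every gene averages 0 across neocortex KQ libraries. Counts were not used here, so depth is unknown, and the spread among libraries sets the precision. The transformation compresses differences of weakly expressed genes.

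Of 24528 genes, 4383 were at 0 in every library. Differences were tested with limma 3.58.1 in R 4.3.3, with sex and litter kept as terms so that their removal was counted in the degrees of freedom. KQ was compared with WT within each region (18310 genes for the hippocampus, 18329 for the neocortex) and in 1 fit of all libraries (17863 genes), which also gave the regional contrasts. Benjamini-Hochberg adjusted p-values under 0.05 were called. The procedure was tested on simulated data, but with no required recovery of changed genes for KQ against WT in the hippocampus. Passing that test therefore does not show how many changed genes this comparison can find, and the recovery counted in the simulation is not given here. Genes called, or with the lowest p where fewer than 6 were called, are given in full. The 31 genes, the marker lists and the other pathway genes were chosen with earlier results of these data known. Promoters came from RefSeq, build GRCm38.p6. Alternatives were the model terms, the filter, centring, a robust fit, blocks and leaving out each library. Results of a few other pathway genes are not reported here.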

Additional observations from a re-analysis of the deposited data

Results flagged for a closer look

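In 9 of 124 groups of 4 to 6 libraries (7.26%) 1 library lay far from the others. Chance gives about 1 in 20 for independent values. After removal of sex and litter these values are not independent, so the share cannot be read against that rate. The widest gap was that of Scd1 in hippocampus KQ female 3, at 0.69, where the other hippocampus KQ libraries lay between -0.23 and -0.05. The same library had the lowest Cyp46a1, at -0.80, with the others between -0.63 and -0.57. Msmo1 was -0.0314 in hippocampus WT female 2, with the others between -0.32 and -0.28. Fasn was -0.20 in hippocampus KQ male 2, with the others between -0.09 and -0.06. Mvk was -0.16 in hippocampus WT male 1, with the others at -0.11, and -0.0538 in neocortex KQ male 1, with the others between 0.003 and 0.02. Lss was -0.0751 in neocortex KQ female 2, with the others between -0.01 and 0.03. In neocortex WT female 2, Stard4 was 0.0644, with the others between -0.03 and -0.01, and Scd2 was 0.0383, with the others between -0.03 and -0.01.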

How the results depend on the processing

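Between genotypes in the neocortex, 0 of the 31 genes were called with sex and litter as terms, 4 (Lss, Mvk, Fasn and Mvd) with genotype as the only term, 4 with genotype and sex, and 4 with litter as a random effect, all higher in KQ. Of all genes 7.84%, 5.58% and 6.82% were called higher in these 3 fits. These fits count the removed sex and litter terms as free, which raises the number of calls by construction. With a replicate block the count was 3 (Lss, Fasn and Mvd), against 6.1% of all genes called higher, under the same limit. Replicate numbers did not pair the genotypes by litter, since KQ and WT came from different litters for female 2, female 3 and neocortex male 1. The correlations of same-numbered libraries ran between -0.60 and 0.12, and no library correlated best with its own number. Sex and litter had been removed from these values, so the correlations could not show a pairing by litter. In the hippocampus 0 were called under every alternative run, the block included, and the fit of both regions and the difference between regions also gave 0 throughout. Leaving out each library in turn gave 0 to 0 genes in every genotype comparison, 12 to 18 in the regional comparison of KQ mice (17 with all libraries) and 7 to 15 in that of WT mice (12 with all libraries). Of all 17863 genes, 4978 to 6539 were called in the regional comparison of KQ mice (6316 with all libraries). In WT mice 3653 to 5882 were (5041 with all libraries). Within a region some of these fits could not change the genotype difference, since sex and litter terms take up the library left out. Such libraries were neocortex KQ female 2 and WT male 1, and hippocampus WT female 3, KQ female 2 and KQ female 3. Without neocortex WT male 1 the fit of both regions did not change either. Cyp46a1, Stard4, Acly, Fdft1, Acat2 and Abca1 kept their regional call in all 20 fits with 1 library left out, in each genotype. In KQ mice Pmvk kept it in 6, Tm7sf2 in 11 and Lss in 12, and in WT mice Nsdhl in 12 and Hsd17b7 in 14. With the mouse as a random effect 18 genes were called in KQ mice and 15 in WT mice. Calls over all 17863 genes rose as well in this setting, to 7031 in KQ mice and 6019 in WT mice. Signs were followed for the 6 genes of lowest p in each genotype comparison, and of these Msmo1 in the hippocampus, not called, changed sign. It was 0.12 with all libraries and, with 1 library left out, ran between -0.0358 (without hippocampus WT male 1) and 0.279 (without hippocampus KQ female 1).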
